A study of Mus musculus with 11 samples.

Results

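The contractile genes of the smooth muscle layer of the gut were 10 genes taken by name, Acta2, Actg2, Myh11, Des, Tagln, Cnn1, Myl9, Tpm2, Synpo2 and Lmod1, out of 24294 gene symbols in the expression table of mouse intestine. All 10 symbols were found, and all 10 passed the filter on low values. The rule that takes them uses gene names and no measured value, though the list was drawn up with earlier results of these data known. The study sequenced total RNA from intestine of mice and, by its title, asked how Huang Lian Jiedu Decoction acts on lipid metabolism in obese mice. Its 11 libraries fell into 3 groups: HLJDD with 4 libraries, HFD with 4 libraries and ND with 3 libraries. HLJDD carries the initials of the decoction, and the labels give the other groups only as HFD and ND. The labels name no strain, age, dose or duration, no diet for the HLJDD mice, and no stretch of intestine. They do not say that each library came from a separate animal, so the p-values below measure the spread between libraries, which may be in part technical.

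Smooth muscle shortens when a myosin light chain kinase phosphorylates the regulatory light chain of myosin and the motor pulls on filaments of muscle actin. Tropomyosin and calponin lie along the actin filament, and desmin ties the contractile units to dense bodies and to the cell border. In the gut these proteins fill the circular and longitudinal muscle coats that move the contents along, and they are also made in the thin muscle beneath the mucosa and in vessel walls. In bulk tissue RNA, fewer muscle cells and less RNA per muscle cell cannot be told apart.

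Read depth lay between 30100481 and 37940645 reads in genes per library, recovered from the deposited FPKM (fragments scaled to gene length and library depth). The 10 genes together took 0.0494% of these reads in the library with the smallest share, HFD replicate 1, and 0.212% in the one with the largest, HFD replicate 2. Transcripts of the mitochondrial genome took 40.7% of reads in HLJDD replicate 2 and 32.4% in HFD replicate 1, against 10.4% to 19.3% in the other 9 libraries. These reads enter the FPKM denominator, so levels are also given after median-ratio scaling, which sets the median gene equal across libraries. Epithelial transcripts were high in every library, with Epcam, a surface protein of epithelial cells, at 396 FPKM or more. Fabp6, the bile acid binding protein of the ileal epithelium, lay between 0.212 and 2.27 FPKM in HLJDD libraries and between 1.26 and 4.31 FPKM in HFD libraries, against 397 to 9821 FPKM in ND libraries. Apoa4, an apolipoprotein made mainly by the upper small intestine, lay between 12489 and 21715 FPKM in HLJDD libraries and between 15115 and 20758 FPKM in HFD libraries, against 245 to 2837 FPKM in ND libraries. The part of these markers of position along the intestine in the comparisons below was not tested.

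The motor of the smooth muscle filament is the heavy chain Myh11 with the regulatory light chain Myl9. Myl9 was the most abundant of the 10 transcripts per length, with a mean of 149 FPKM over the 11 libraries. Its level was 118, 68.2, 167 and 74.2 FPKM in HLJDD replicates 1 to 4, and 57.5, 256, 163 and 128 FPKM in HFD replicates 1 to 4, against 229, 209.6 and 172 FPKM in ND replicates 1 to 3. Every HLJDD library was below every ND library, while HFD replicate 2 stood above all of them. Myh11 measured 30.2, 15.7, 43.5 and 21.3 FPKM in the 4 HLJDD libraries and 10.96, 65.7, 43.5 and 34.8 FPKM in the 4 HFD libraries, against 60.3, 50.9 and 30.5 FPKM in the 3 ND libraries. Its lowest and its highest value over all 11 libraries were both in HFD.

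The stretch before the Myl9 gene is shown because, of the 7 genes with a promoter window, it alone held a full CArG box. Serum response factor binds this box, and several smooth muscle genes are known targets of it. The part of this factor in the levels of the 10 genes was not tested. The stretch covers 194 bases on the plus strand at chr2:156775214-156775407, taken from the RefSeq promoter table on GRCm38.p6 and ending before the first annotated exon. Capitals mark a full CArG box and a second match with 1 inner base that is not A or T; they begin 161 and 99 bases before the RefSeq start.

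Myl9: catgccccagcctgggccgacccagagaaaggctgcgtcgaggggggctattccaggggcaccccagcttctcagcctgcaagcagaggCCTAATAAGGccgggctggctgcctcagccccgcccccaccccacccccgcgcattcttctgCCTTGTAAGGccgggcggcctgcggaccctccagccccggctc

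The table held a promoter window for 7 of the 10 genes, not for Actg2, Tagln or Myh11. The search covered both strands of the 250 bases before the start in each 300-base window. A full box was found in 1 of the 7, Myl9, and in 1.47% of all 32851 windows. With 1 inner base allowed off, it was found in 2 of the 7, Myl9 and Acta2, and in 8.59% of all windows. The 2 matches of Acta2, with 1 inner base off each, are given with 10 flanking bases on both sides, read on the minus strand at chr19:34255438-34255467 and chr19:34255388-34255417, with the box in capitals. These matches begin 84 and 34 bases before the RefSeq start of the window. They lie inside the annotated Acta2 gene, which spans 34240336 to 34255585, and not upstream of it.

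Acta2 box 1: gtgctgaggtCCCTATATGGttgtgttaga
Acta2 box 2: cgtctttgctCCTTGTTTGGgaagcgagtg

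These matches describe the letters in the window and were not tied to any value of the libraries.

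The muscle actins are Acta2, the alpha actin of vessels and visceral muscle, and Actg2, the gamma actin that prevails in gut muscle. Acta2 measured 72.0, 42.5, 94.6 and 44.0 FPKM in HLJDD replicates 1 to 4 and 32.8, 131, 97.7 and 78.5 FPKM in HFD replicates 1 to 4, against 132, 125 and 93.6 FPKM in ND replicates 1 to 3. HLJDD replicate 3 was just above ND replicate 3, and HFD spanned nearly the whole range. Actg2 measured 75.6, 35.0, 109.8 and 46.6 FPKM in the HLJDD libraries and 36.4, 146, 97.5 and 77.0 FPKM in the HFD libraries, against 166, 159 and 126 FPKM in the ND libraries. All 4 HLJDD libraries were below all 3 ND libraries, and of the HFD libraries replicate 2 reached the ND range. The coding ends of both actins are printed because their reads could be confused. They share 84.3% of their last 1122 coding bases, set side by side without gaps, and their longest identical run is 29 bases. Capitals mark the 16 of the last 90 coding bases at which they differ, from the GENCODE M21 transcripts on GRCm38; Acta2 lies on chromosome 19 at 34240336 to 34255585, and Actg2 on chromosome 6 at 83512909 to 83536251.

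Acta2: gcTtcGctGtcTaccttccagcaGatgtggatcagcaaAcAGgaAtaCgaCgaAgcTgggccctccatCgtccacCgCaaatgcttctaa
Actg2: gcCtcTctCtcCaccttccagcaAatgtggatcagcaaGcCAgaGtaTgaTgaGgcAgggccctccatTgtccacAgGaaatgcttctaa

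The read length and the handling of multiply mapped reads were not given in the sources used here, so a small exchange of reads among actins cannot be told apart from expression. The cytoplasmic actins, which every cell makes, are far more abundant in this tissue: Actb averaged 1614 ± 298 FPKM in HLJDD (SD, n = 4), 1761 ± 189.6 FPKM in HFD (SD, n = 4) and 1842 ± 98.7 FPKM in ND (SD, n = 3). The longest identical coding run with Acta2 was 47 bases for Actb and 56 bases for Actg1, and with Actg2 it was 26 bases for both. The cardiac actin Actc1 was under 0.1 FPKM in every library.

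Of the proteins that sit on the actin filament, Tagln (transgelin) is an actin-binding protein of the calponin family. It measured 75.0, 38.9, 102.8 and 44.3 FPKM in HLJDD replicates 1 to 4 and 33.7, 119.9, 83.3 and 70.9 FPKM in HFD replicates 1 to 4, against 145, 135 and 99.6 FPKM in ND replicates 1 to 3. HLJDD replicate 3 reached into the ND range, and so did HFD replicate 2. Calponin itself, Cnn1, which binds actin and slows the myosin motor, measured 20.3, 10.1, 30.2 and 12.2 FPKM in HLJDD and 10.6, 41.0, 26.5 and 23.4 FPKM in HFD, against 40.4, 40.9 and 30.03 FPKM in ND. Again HLJDD replicate 3 was just above ND replicate 3. Tpm2, a tropomyosin, measured 30.5, 18.6, 45.6 and 20.03 FPKM in HLJDD and 17.1, 70.6, 46.7 and 35.3 FPKM in HFD, against 58.1, 54.9 and 43.2 FPKM in ND. Lmod1, a leiomodin that nucleates actin filaments in smooth muscle, was low, at 3.16, 1.74, 3.94 and 2.27 FPKM in HLJDD and 0.892, 4.52, 3.4 and 3.75 FPKM in HFD, against 5.67, 5.01 and 3.33 FPKM in ND. For Tpm2 and Lmod1 all 3 groups overlapped.

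Des encodes desmin, the intermediate filament protein of muscle. It measured 41.2, 20.5, 56.2 and 25.3 FPKM in HLJDD replicates 1 to 4 and 22.7, 78.3, 50.3 and 41.0 FPKM in HFD replicates 1 to 4, against 67.6, 65.0 and 53.1 FPKM in ND replicates 1 to 3. Synpo2, an actin-bundling protein of muscle, measured 2.84, 1.49, 4.00 and 1.79 FPKM in HLJDD and 0.803, 4.72, 3.44 and 2.91 FPKM in HFD, against 6.79, 5.17 and 2.83 FPKM in ND. In both genes HFD replicate 1 and HLJDD replicate 2 were the lowest of their groups, and the groups overlapped. The lowest count behind any of the 10 genes was 112 reads, for Lmod1 in HFD replicate 1, and the same gene reached 788 reads in ND replicate 1.

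**Figure D1:**
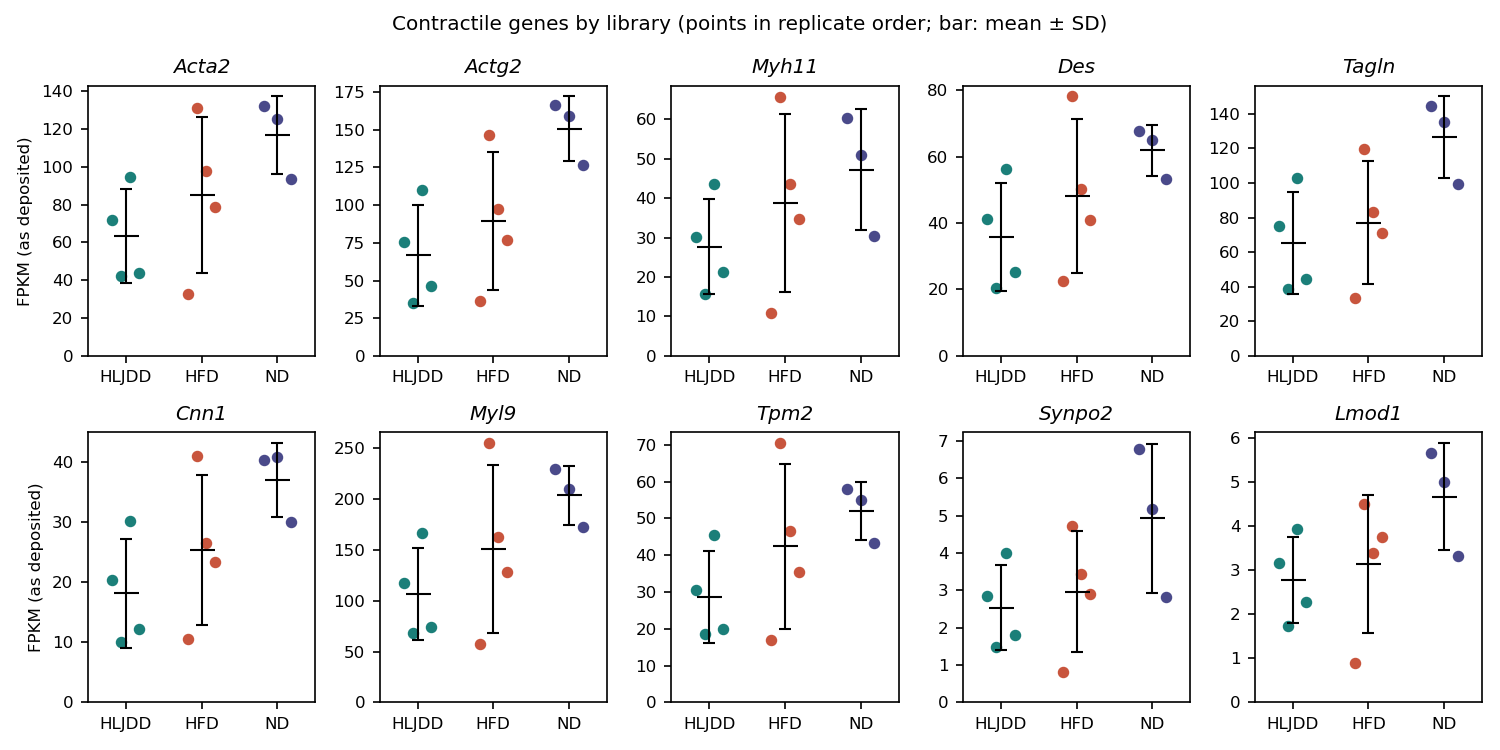
FPKM as deposited of the 10 contractile genes in each library, by group (HLJDD, HFD, ND). Points are single libraries in replicate order, and bars give the mean ± SD. HFD replicate 1 is the lowest and HFD replicate 2 the highest HFD library in all 10 panels.

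By mean FPKM over the 11 libraries, a scale per gene length, the order was Myl9 (149), Actg2 (97.8), Tagln (86.2), Acta2 (85.9), Des (47.4), Tpm2 (40.1), Myh11 (37.0), Cnn1 (26.0), Lmod1 (3.43) and Synpo2 (3.34). Tagln was above Acta2 in 7 of 11 libraries and Lmod1 above Synpo2 in 6 of 11, so neither of these neighbours was apart from the other beyond the spread. Tpm2 was above Myh11 in 9 of 11 libraries and Actg2 above Tagln in 10 of 11. The other 5 steps held in all 11 libraries. In the GENCODE M21 annotation of GRCm38, besides the actins placed above, Des lies on chromosome 1 at 75360292 to 75368579, Lmod1 on chromosome 1 at 135324813 to 135368065, Myl9 on chromosome 2 at 156775408 to 156781657 and Synpo2 on chromosome 3 at 123076519 to 123236168. Tpm2 lies on chromosome 4 at 43513726 to 43523583, Cnn1 on chromosome 9 at 22099221 to 22109221, Tagln on chromosome 9 at 45929628 to 45936058 and Myh11 on chromosome 16 at 14194527 to 14292188.

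The 10 genes moved together. Over the 11 libraries the 45 pairwise Pearson correlations of log2(FPKM + 1) lay between 0.909 (Des with Lmod1) and 0.996 (Myl9 with Tpm2), with a median of 0.971. The libraries share a depth and a mitochondrial share, and after median-ratio scaling the range was 0.817 to 0.992 with a median of 0.946. With each group's mean also taken out, the median was 0.958, so the common movement lay within groups as well. A single axis held 94.3% of the variance of the scaled levels of the 10 genes. These correlations describe 11 libraries and carry no test.

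The same libraries were high and low for nearly every gene. HFD replicate 1 was the lowest HFD library and HFD replicate 2 the highest for 10 of 10 genes. HLJDD replicate 2 was the lowest HLJDD library and HLJDD replicate 3 the highest for 10 of 10. ND replicate 3 was the lowest ND library for 10 of 10, and ND replicate 1 the highest for 9, with Cnn1 highest in ND replicate 2. Within a group the highest library exceeded the lowest by 2.23-fold (Acta2) to 3.14-fold (Actg2) in HLJDD and by 3.45-fold (Des) to 5.99-fold (Myh11) in HFD, against 1.27-fold (Des) to 2.40-fold (Synpo2) in ND. After scaling these ranges were 1.51-fold to 2.13-fold in HLJDD and 2.48-fold to 4.31-fold in HFD, against 1.13-fold to 2.14-fold in ND.

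Summed over the 10 genes, the level was 468, 253, 657 and 292 FPKM in HLJDD replicates 1 to 4 and 223, 918, 615 and 496 FPKM in HFD replicates 1 to 4, against 911, 851 and 655 FPKM in ND replicates 1 to 3. The libraries with the highest mitochondrial shares, HLJDD replicate 2 and HFD replicate 1, had the lowest sums. After scaling the sums were 431, 328, 565 and 293 in HLJDD and 294, 871, 608 and 505 in HFD, against 774, 729.7 and 625 in ND. On that scale all 4 HLJDD sums were below all 3 ND sums, HLJDD replicate 4 replaced replicate 2 as the lowest of its group, and HFD replicate 1 stayed the lowest of HFD. The part of RNA quality in these sums was not tested.

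**Figure D2:**
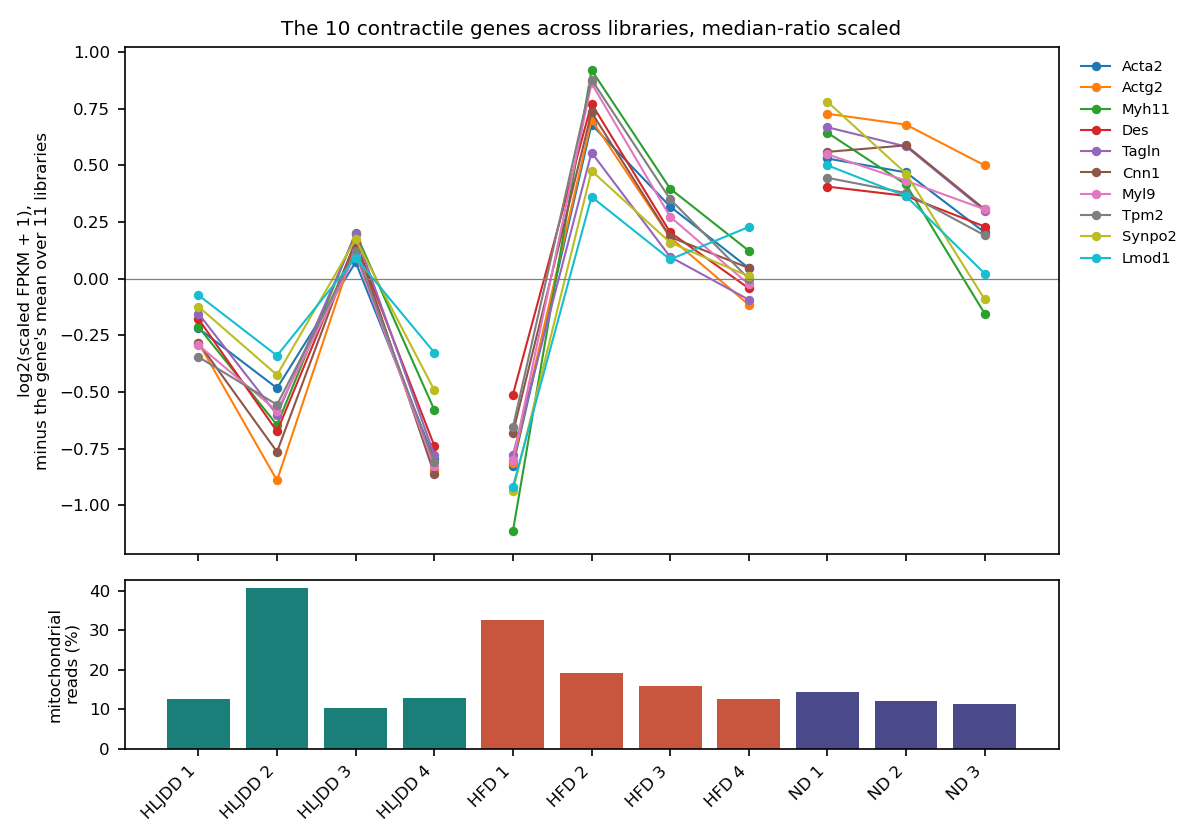
Upper panel: log2(median-ratio scaled FPKM + 1) of each of the 10 genes minus its own mean over the 11 libraries, with lines joining a gene within a group. Lower panel: percent of reads from the mitochondrial genome in the same libraries. The lines run nearly parallel, with HFD replicates 1 and 2 at opposite ends.

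No contractile gene passed the test in HFD against ND. All 10 means were below those of ND (70.7% of all genes had a log2 difference below 0), but the HFD libraries included the lowest level of 7 genes and the highest level of 5 over all 11 libraries. Acta2 averaged 85.1 ± 41.1 FPKM in HFD (SD, n = 4) and 117 ± 20.5 FPKM in ND (SD, n = 3), and Actg2 averaged 89.3 ± 45.7 FPKM in HFD and 151 ± 21.4 FPKM in ND. The desmin gene Des averaged 48.1 ± 23.2 FPKM in HFD and 61.9 ± 7.71 FPKM in ND. Myh11 averaged 38.7 ± 22.6 FPKM in HFD and 47.2 ± 15.3 FPKM in ND.

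The test was limma on log2(FPKM + 1), two-sided, over 10764 genes with Benjamini-Hochberg adjustment. Of the 10 genes, 0 had an adjusted p under 0.05 in HFD against ND, against 11.5% of all genes lower and 16.6% in either direction, and 0 had an unadjusted p under 0.05, against 26.6% of all genes lower and 36.7% in either direction. With limma-voom on the recovered reads, where mitochondrial reads also enter the library size, the count was also 0. The largest difference was that of Actg2, a log2 difference of -0.90 (SE 0.44, adjusted p = 0.153), and the smallest that of Tpm2, -0.44 (SE 0.41, adjusted p = 0.425). The median log2 difference was -0.60, beside -0.20 for all genes, and after median-ratio scaling it was -0.35, beside -0.000209 for all genes. None of the 10 genes separated the groups without overlap, against 32.9% of all genes lower in every HFD library than in every ND library. Without HFD replicate 1 the median was -0.21, and Myh11 changed sign, to 0.03. Without HFD replicate 1 and HLJDD replicate 2, and with scaling, the median was -0.07, beside 0.00241 for all genes.

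No contractile gene passed in HLJDD against HFD either. All 10 means were below those of HFD (34.1% of all genes had a log2 difference below 0). The groups overlapped for all 10 genes, and 0.548% of all genes were lower in every HLJDD library than in every HFD library. Tpm2 averaged 28.7 ± 12.4 FPKM in HLJDD and 42.4 ± 22.4 FPKM in HFD (SD, n = 4 each), with a log2 difference of -0.47 (SE 0.38, 95% interval -1.29 to 0.35). Myl9 averaged 106.6 ± 45.6 FPKM in HLJDD and 151 ± 82.3 FPKM in HFD. Lmod1 averaged 2.78 ± 0.972 FPKM in HLJDD and 3.14 ± 1.57 FPKM in HFD, with a log2 difference of -0.06 (SE 0.31, 95% interval -0.73 to 0.61).

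Limma gave an adjusted p of 0.999 for all 10 genes, 0 passed also at an unadjusted p under 0.05, and limma-voom called 0. Among all 10764 genes 0 passed after adjustment, 0.0% of them, 1.73% had an unadjusted p under 0.05 and 0.753% had one and were lower. The median log2 difference of the 10 was -0.36, beside 0.06 for all genes, and it was -0.43 beside 0.00334 after scaling. It depended on single libraries: it was -0.09 without HFD replicate 2, -0.15 without HLJDD replicate 2 and -0.75 without HFD replicate 1. Without both HLJDD replicate 2 and HFD replicate 1, the libraries with the highest mitochondrial shares, it was -0.53, beside 0.09 for all genes. With scaling as well it was -0.61, beside 0.02, and 0 of the 10 genes passed after adjustment in either fit. Without HFD replicate 2, 4 of the 10 genes (Myh11, Tagln, Synpo2 and Lmod1) had a difference above 0.

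The HLJDD means, as deposited, were below those of ND for all 10 genes (66.2% of all genes had a log2 difference below 0), and none passed the test after adjustment. Actg2 averaged 66.8 ± 33.4 FPKM in HLJDD (SD, n = 4) and 151 ± 21.4 FPKM in ND (SD, n = 3), a log2 difference of -1.29 (SE 0.44, 95% interval -2.24 to -0.34, adjusted p = 0.0778 by limma). Cnn1 averaged 18.2 ± 9.12 FPKM in HLJDD and 37.1 ± 6.15 FPKM in ND, a log2 difference of -1.10 (SE 0.41, adjusted p = 0.104). Tagln averaged 65.3 ± 29.6 FPKM in HLJDD and 126 ± 23.8 FPKM in ND, and Myl9 averaged 106.6 ± 45.6 FPKM in HLJDD and 204 ± 28.9 FPKM in ND.

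Of the 10 genes, 0 passed in HLJDD against ND by limma after adjustment, against 7.79% of all genes lower and 11.9% in either direction, and limma-voom called 0. At an unadjusted p under 0.05 there were 7 (Acta2, Actg2, Cnn1, Des, Myl9, Tagln and Tpm2), against 19.1% of all genes lower. In 2 of the 10, Actg2 and Myl9, every HLJDD library was below every ND library, against 21.3% of all genes. The median log2 difference was -0.93, beside -0.13 for all genes. The smallest difference was that of Lmod1, -0.60 (SE 0.33, adjusted p = 0.256).

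After median-ratio scaling, Actg2 fell in HLJDD against ND: 69.6, 45.4, 94.4 and 46.8 scaled FPKM in HLJDD replicates 1 to 4, against 141, 137 and 121 in ND replicates 1 to 3. Its log2 difference was -1.10 (SE 0.33, adjusted p = 0.0424 by limma), and over the 24 alternatives run the adjusted p lay between 3.39e-05 and 0.241. Of all genes 9.18% were called lower on this scale. The other 9 contractile genes did not pass, with Cnn1 next at -0.92 (SE 0.31, adjusted p = 0.0648). In 7 of the 10 genes the scaled groups did not overlap, against 18.1% of all genes lower: Acta2, Actg2, Des, Tagln, Cnn1, Myl9 and Tpm2. The median log2 difference was -0.75, beside 0.02 for all genes. Without HLJDD replicate 3, the highest of its group, Actg2 and Cnn1 passed on the deposited scale (adjusted p = 0.0346 and 0.0436), and without HFD replicate 1, 5 genes passed (Acta2, Actg2, Cnn1, Myl9 and Tagln, adjusted p = 0.0299 to 0.0499). HFD replicate 1 belongs to neither group of this comparison. Leaving it out kept the log2 differences the same and changed the estimate of spread shared by the 3 groups. The adjusted p came from limma in each fit.

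**Figure D3:**
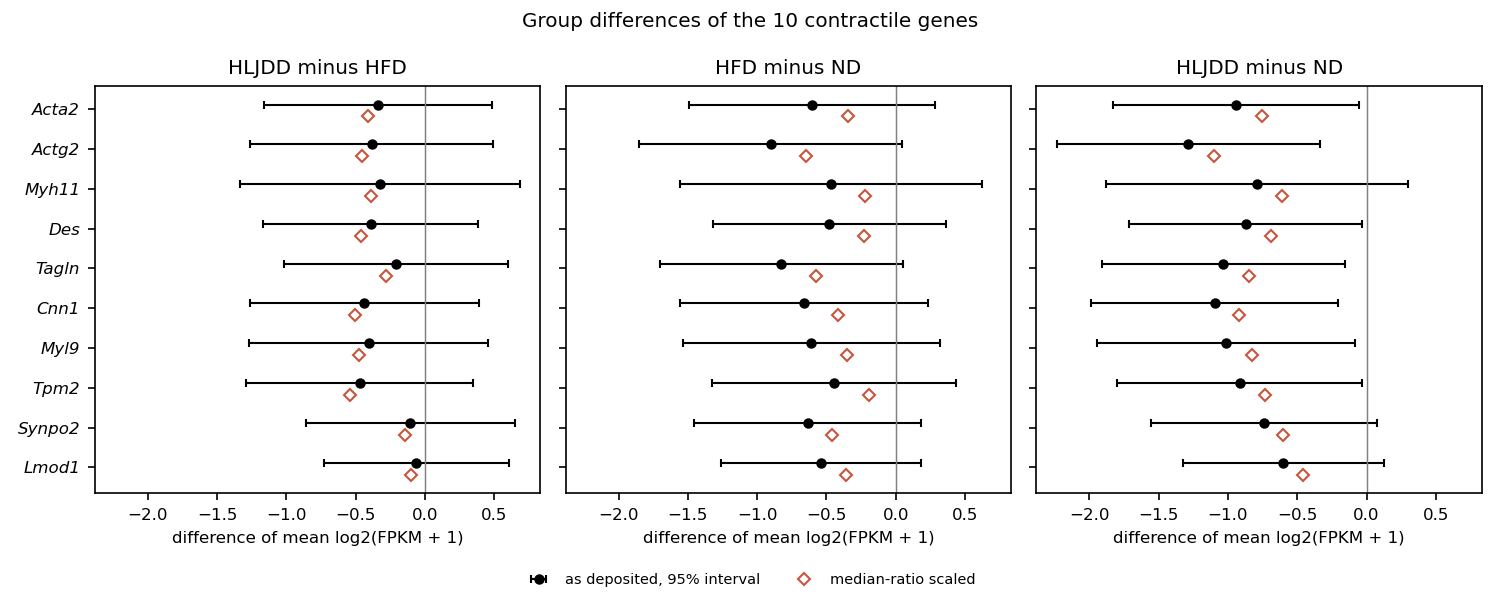
Difference of mean log2(FPKM + 1) for each contractile gene in HLJDD minus HFD, HFD minus ND and HLJDD minus ND. Filled points with bars are the deposited scale with the 95% interval of limma, and open diamonds are median-ratio scaled values. All 30 filled points lie below 0, and 7 intervals, all in HLJDD minus ND, exclude 0.

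The 3 comparisons share libraries, so their differences are not independent of each other. Side by side, the log2 difference of Actg2 was -0.38 in HLJDD against HFD, -0.90 in HFD against ND and -1.29 in HLJDD against ND, and that of Myh11 was -0.32, -0.47 and -0.79.

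Ratios between genes of one library do not depend on its depth or scaling. The ratio of Actg2 to Acta2, chosen after its values were seen and given as a description, was 1.05, 0.824, 1.16 and 1.06 in HLJDD replicates 1 to 4 and 1.11, 1.11, 0.998 and 0.980 in HFD replicates 1 to 4, against 1.26, 1.27 and 1.35 in ND replicates 1 to 3. All 3 ND libraries were above all 8 others, including HFD replicate 2, which had as much Acta2 as ND. Acta2 is also made in vessel walls and Actg2 mainly in visceral muscle. The ratio of Myl9 to Acta2 overlapped among groups, at 1.60 to 1.76 in HLJDD and 1.63 to 1.95 in HFD, against 1.67 to 1.84 in ND. The ratio of Tagln to Acta2 was 0.916 to 1.09 in HLJDD and 0.852 to 1.03 in HFD, against 1.06 to 1.096 in ND. The ratio of Myh11 to Des was 0.483 in HFD replicate 1 and 0.573 in ND replicate 3, against 0.734 to 0.893 in the other 9 libraries. Lmod1 over Des and Synpo2 over Des were also lowest in HFD replicate 1, at 0.0393 and 0.0354.

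**Figure D4:**
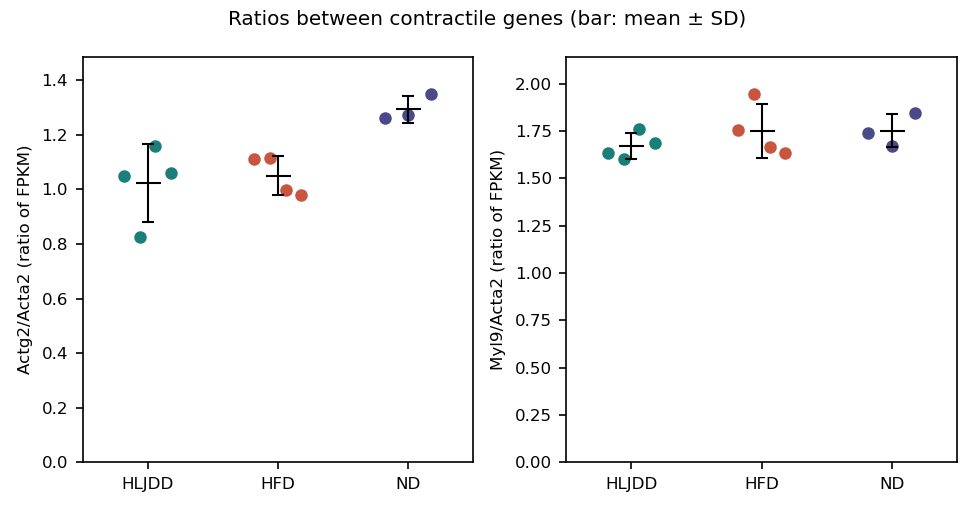
Ratio of FPKM within each library, Actg2 over Acta2 on the left and Myl9 over Acta2 on the right, for HLJDD, HFD and ND. Points are libraries and bars the mean ± SD. The 3 ND libraries lie between 1.26 and 1.35 for the actins, above all HLJDD and HFD libraries, and the groups overlap for Myl9 over Acta2.

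The genes most like the 10 in pattern were, by Pearson correlation with the mean of their standardised log2(FPKM + 1) over the 11 libraries, Nkd2 (0.993), Colec10 (0.990), Sgcb (0.989), Pgm5 (0.986), Fxyd6 (0.984), Sparcl1 (0.981), Hspb8 (0.981), Sh3bgr (0.980), Pdlim3 (0.979) and Flna (0.979). Sgcb is a sarcoglycan of the muscle cell membrane, Pgm5 is a protein of muscle adherens junctions, Pdlim3 binds actinin, Hspb8 is a small heat shock protein of muscle, and Flna crosslinks actin. After scaling, 8 of the 10 were again among the 10 most alike, and Cald1 and Tspan2 took the places of Pdlim3 and Flna. Levels were mostly low. Colec10 averaged 0.521 ± 0.355 FPKM in HLJDD (SD, n = 4) and 0.890 ± 0.607 FPKM in HFD (SD, n = 4), against 1.31 ± 0.374 FPKM in ND (SD, n = 3), and Flna averaged 14.9 ± 7.003 FPKM in HLJDD and 16.5 ± 8.11 FPKM in HFD, against 25.6 ± 7.69 FPKM in ND.

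Among 26 contractile partners (kinase and phosphatase subunits, crosslinkers and anchors of the filament), 25 passed the filter. The list's median log2 difference was -0.14 in HLJDD against HFD, -0.37 in HFD against ND and -0.40 in HLJDD against ND. None of the 25 passed the test in HLJDD against HFD. Ppp1r14a, an inhibitor of myosin phosphatase named after its values were seen, fell in HLJDD against ND (log2 difference -0.92, limma adjusted p = 0.0451). That call was lost without HFD replicate 3, HLJDD replicate 1, 2 or 4, or ND replicate 1 or 2 (adjusted p up to 0.198).

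Partners differed in how closely they followed the contractile genes. On scaled values the correlation was 0.965 for Cald1 (caldesmon), 0.961 for Flna, 0.930 for Smtn (smoothelin) and 0.596 for Mylk, the light chain kinase, whose long form is not confined to muscle. It was -0.86 for Tpm4, a tropomyosin of many cell types, and -0.42 for Rhoa. Mylk averaged 39.1 ± 7.54 FPKM in HLJDD and 46.6 ± 15.0 FPKM in HFD, against 43.7 ± 7.02 FPKM in ND. Csrp1, a LIM protein of smooth muscle, averaged 25.2 ± 14.05 FPKM in HLJDD and 24.6 ± 11.05 FPKM in HFD, against 56.2 ± 8.83 FPKM in ND, with adjusted p of 0.0671 in HFD against ND and 0.0869 in HLJDD against ND by limma.

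Of 15 regulators of muscle transcription, 11 passed the filter, of which, in HFD against ND, 1 rose and 2 fell, where 5.06% of all genes rose and 11.5% fell. Srf, the factor that binds the CArG box, fell to 4.09 ± 0.504 FPKM in HFD, against 8.63 ± 1.45 FPKM in ND (log2 difference -0.92, limma adjusted p = 0.0052), and in HLJDD it was 4.57 ± 1.17 FPKM (-0.80 against ND, adjusted p = 0.0123). Klf4, which holds back muscle genes in vessel muscle and is also made by gut epithelium, fell to 29.5 ± 2.89 FPKM in HLJDD and 30.5 ± 2.59 FPKM in HFD, against 49.0 ± 6.27 FPKM in ND. Gata6 rose to 36.8 ± 7.54 FPKM in HLJDD and 42.4 ± 4.26 FPKM in HFD, against 23.3 ± 0.589 FPKM in ND; it is made in gut epithelium as well as in muscle. In HLJDD against ND, where 4.1% of all genes rose and 7.79% fell, 1 rose (Gata6) and 4 fell (Srf, Klf4, Foxf1 and Foxf2). Foxf1 and Foxf2 are factors of gut mesenchyme, named after their values were seen, with log2 differences of -0.80 and -0.59 (adjusted p = 0.0434 and 0.0316).

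Srf followed the contractile genes with a correlation of 0.557 on scaled values, Hand2 with 0.896, Foxf1 with 0.847 and Gata6 with -0.72. Myocd, the muscle coactivator of Srf, was low in every library, with means of 0.209 ± 0.147 FPKM in HLJDD and 0.282 ± 0.178 FPKM in HFD, against 0.361 ± 0.137 FPKM in ND. The calls of Srf and Gata6 in HFD against ND passed in all 11 fits that left out 1 library, while that of Klf4 was lost without ND replicate 1 (adjusted p = 0.0508) and under median-ratio scaling (0.0643). The Klf4 call in HLJDD against ND passed in all 11 fits. There the call of Srf was lost without ND replicate 1 or 2 (up to 0.0766), and that of Gata6 without HLJDD replicate 1 or 4 or any ND library (up to 0.117). The call of Foxf2 was lost without HLJDD replicate 1 or 4 or ND replicate 1 or 2 (up to 0.168), and that of Foxf1 without those, HLJDD replicate 2 or HFD replicate 3 (up to 0.204).

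Of 27 receptors, channels and membrane proteins of muscle, 15 passed the filter, of which, in HFD against ND, 0 rose and 3 fell: Dmd (dystrophin, log2 difference -0.59, limma adjusted p = 0.0266), Ednrb (an endothelin receptor, -0.64, adjusted p = 0.028) and Pde5a (the phosphodiesterase that degrades cyclic GMP, -0.77, adjusted p = 0.0493). Of all genes 11.5% fell in this comparison. Dmd averaged 0.567 ± 0.262 FPKM in HFD and 1.34 ± 0.188 FPKM in ND. In HLJDD against ND, where 7.79% of all genes fell, 0 rose and 3 fell, Dmd (-0.61), Ednrb (-0.80) and Gucy1b1, a subunit of the receptor for nitric oxide (-0.92, adjusted p = 0.0276, named after its values were seen). None passed in HLJDD against HFD. In HFD against ND the calls were lost without ND replicate 1 or 2 for all 3 genes, without HFD replicate 1 for all 3, without HFD replicate 4 for Ednrb and Pde5a, and for Pde5a also without HFD replicate 3, HLJDD replicate 1 or ND replicate 3. In those fits adjusted p reached 0.12 for Dmd, 0.141 for Ednrb and 0.183 for Pde5a, whose call was also lost under median-ratio scaling (0.0502). The calls in HLJDD against ND were lost without ND replicate 1 or 2 for all 3, without HLJDD replicate 1 or 4 for Dmd and Gucy1b1, and without HLJDD replicate 2 for Gucy1b1, reaching 0.133 for Dmd, 0.0743 for Ednrb and 0.153 for Gucy1b1. The muscarinic receptor Chrm2, which relays cholinergic input to gut muscle, averaged 1.96 ± 0.861 FPKM in HLJDD and 2.53 ± 1.64 FPKM in HFD, against 3.29 ± 1.63 FPKM in ND, and did not pass.

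Counterparts that other cells use were also listed. Over 12 non-muscle genes such as the cytoplasmic actins and myosins that passed the filter, the median correlation on scaled values was 0.10, with a range of -0.62 to 0.36, against a median of -0.12 for all genes. Without HLJDD replicate 2 and HFD replicate 1 the non-muscle median was -0.19, against -0.17 for all genes. One comparison, HFD against ND, had 1 of the 12 lower by the test, Tpm3, at 20.4 ± 3.65 FPKM in HFD against 38.7 ± 1.31 FPKM in ND (log2 difference -0.91, limma adjusted p = 0.0113), and 0 passed in HLJDD against ND or HLJDD against HFD. That call was lost without ND replicate 1 or 2 (adjusted p up to 0.0532).

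Genes of other cell types of the muscle wall followed the contractile genes more closely. On scaled values the median correlation was 0.83 for 4 genes of interstitial cells of Cajal, the pacemaker cells of gut muscle, 0.87 for 12 genes of enteric neurons, 0.70 for 14 genes of fibroblasts and matrix, 0.81 for 6 genes of pericytes and vessel walls and 0.66 for 5 genes of the mesothelium that covers the gut. For 8 endothelial genes it was -0.13, and for 14 epithelial genes 0.12. The endothelial value rested on the libraries with the highest mitochondrial shares: without HLJDD replicate 2 and HFD replicate 1 it was 0.68, while the neuronal median was then 0.81 and the epithelial one 0.09. Of 10 glial genes only Entpd2 passed the filter, with a correlation of 0.00, and of 4 striated muscle genes Ckm, a muscle creatine kinase, had 0.93 while the other 3 were between -0.53 and -0.34. These are descriptions over 11 libraries that share their depth and composition.

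**Figure D5:**
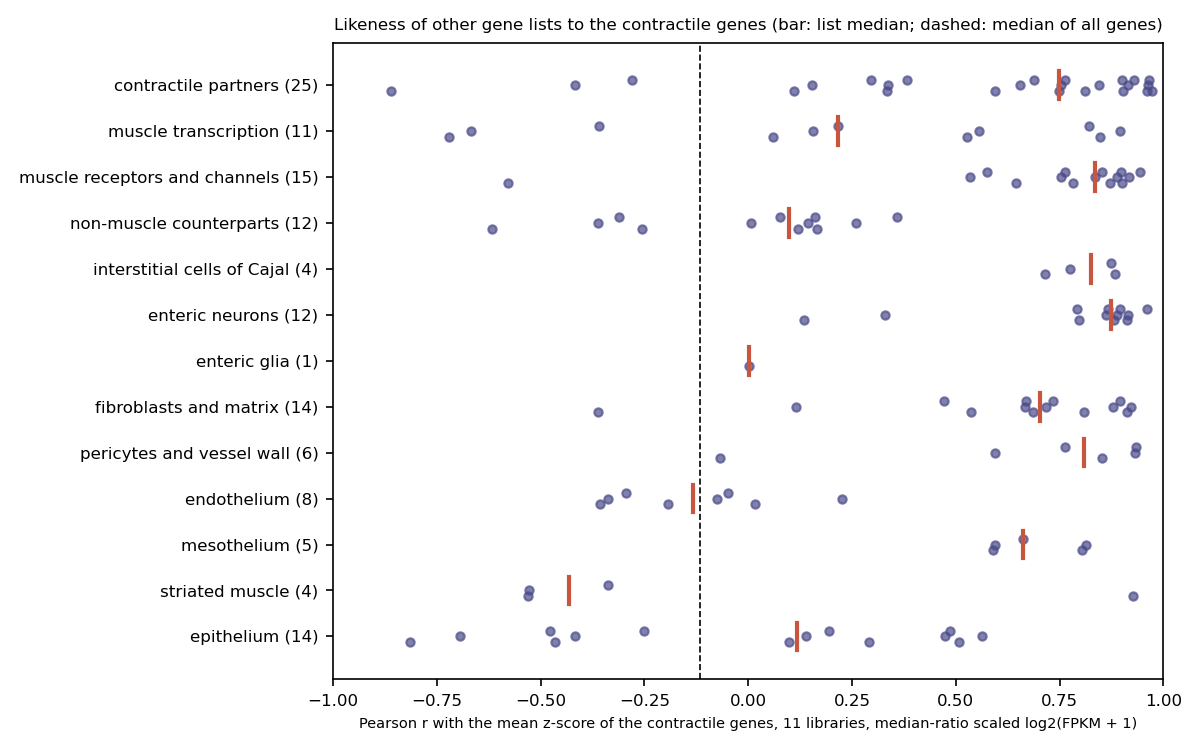
Pearson correlation of each gene of 13 lists with the mean standardised level of the 10 contractile genes, over 11 libraries on median-ratio scaled log2(FPKM + 1). Points are genes, the bar is the median of a list, and the dashed line is the median of all genes at -0.12. Medians of the partner, receptor, Cajal, neuronal, fibroblast, pericyte and mesothelial lists lie to the right. Those of the epithelial, endothelial, glial (1 gene) and non-muscle lists lie around 0. The muscle transcription median is 0.22 and the striated muscle median -0.43. Without HLJDD replicate 2 and HFD replicate 1, which are included here, the endothelial median was 0.68 and that of muscle transcription 0.56.

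The FPKM of each of these lists were also summed. Such a sum follows its most abundant genes and does not measure how many cells of a type were present. Rgs5 made up 59.6 of the 75.8 FPKM of the pericyte sum in HFD replicate 2. Fbln1 made up 56.4 of the 105 FPKM of the fibroblast sum in HFD replicate 4, and its scaled correlation with the contractile genes was -0.36. The 19 neuronal genes summed to 18.9 to 39.8 FPKM in HLJDD and 13.3 to 54.0 FPKM in HFD, against 38.2 to 66.5 FPKM in ND. The 8 genes of interstitial cells of Cajal summed to 10.7 to 23.4 FPKM in HLJDD and 9.97 to 22.4 FPKM in HFD, against 33.2 to 42.7 FPKM in ND, so that HLJDD and HFD did not overlap with ND. Most of that gap was Edn3, an endothelin ligand, at 12.2 ± 4.31 FPKM in HLJDD and 11.9 ± 2.98 FPKM in HFD, against 31.4 ± 2.62 FPKM in ND. The defining markers Kit and Ano1 were low, at 0.468 to 0.880 and 0.616 to 1.48 FPKM in HLJDD and 0.533 to 1.46 and 0.423 to 1.41 FPKM in HFD, against 1.09 to 1.71 and 1.24 to 1.95 FPKM in ND. The 8 mesothelial genes summed to 26.3 to 43.9 FPKM in HLJDD and 16.7 to 43.7 FPKM in HFD, against 40.3 to 55.4 FPKM in ND. The 10 pericyte genes summed to 27.9 to 53.8 FPKM in HLJDD and 23.0 to 75.8 FPKM in HFD, against 38.1 to 78.2 FPKM in ND. The 19 fibroblast genes summed to 76.0 to 149 FPKM in HLJDD and 70.6 to 173 FPKM in HFD, against 123 to 184 FPKM in ND. No gene of these lists, nor of any other, was at 0 in every library; the pericyte marker Rgs5 reached 59.6 FPKM, while Elavl4 (neurons) stayed at or under 1.33, Pdgfra (fibroblasts) at or under 1.82 and Msln (mesothelium) at or under 5.30 FPKM. After median-ratio scaling the neuronal sums were 24.4 to 34.2 in HLJDD and 17.5 to 51.2 in HFD, against 36.5 to 56.5 in ND, and the mesothelial sums were 27.5 to 37.7 in HLJDD and 22.1 to 41.5 in HFD, against 38.4 to 47.0 in ND. On that scale the HLJDD libraries lay below all ND libraries in both lists, as they did for the contractile sums. The scaled sums of interstitial cells of Cajal were 12.2 to 20.1 in HLJDD and 13.1 to 21.2 in HFD, against 31.7 to 36.3 in ND. The scaled fibroblast sums, 96.4 to 129 in HLJDD and 93.0 to 164 in HFD against 118 to 156 in ND, overlapped, and so did the scaled pericyte sums, 28.0 to 48.2 in HLJDD and 30.3 to 71.9 in HFD against 36.3 to 66.5 in ND. The part of these cell types in the contractile genes' levels was not tested.

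Of all genes 11.5% fell in HFD against ND and 7.79% in HLJDD against ND. Among the lists of the muscle wall, 1 of 4 genes of interstitial cells of Cajal and 1 of 5 mesothelial genes fell in HFD against ND: Edn3 fell by 1.35 and Upk1b, a mesothelial and urothelial membrane protein, fell by 1.42 on the log2 scale (limma adjusted p = 0.00381 and 0.00348). For HLJDD against ND, Edn3 fell by 1.34 and Upk1b fell by 1.18 (adjusted p = 0.00487 and 0.0111). Among the neuronal, glial, fibroblast, pericyte and endothelial genes, 0 passed in any comparison. The most abundant neuronal gene, Uchl1, averaged 5.78 ± 1.62 FPKM in HLJDD and 6.54 ± 2.84 FPKM in HFD, against 9.95 ± 1.97 FPKM in ND, and the matrix gene Dcn (decorin) averaged 22.7 ± 9.40 FPKM in HLJDD and 28.8 ± 21.6 FPKM in HFD, against 49.4 ± 17.3 FPKM in ND. The endothelial gene Pecam1 averaged 3.37 ± 0.865 FPKM in HLJDD and 2.45 ± 0.841 FPKM in HFD, against 2.34 ± 0.616 FPKM in ND. The neuronal median log2 difference was -0.10 in HLJDD against HFD, -0.51 in HFD against ND and -0.62 in HLJDD against ND. Of 4 striated muscle genes Acta1, the skeletal muscle actin, fell in HFD against ND (-1.21, adjusted p = 0.0234), but not after scaling (adjusted p = 0.0894). Of 14 epithelial genes 0 rose and 3 fell in HFD against ND (Hnf4a, Cldn7 and Esrp1), and 0 rose and 2 fell in HLJDD against ND (Hnf4a and Cldn7). The Hnf4a call in HFD against ND and both Edn3 calls passed in all 11 fits that left out 1 library, as did that of Upk1b in HFD against ND; in HLJDD against ND that of Upk1b was lost without ND replicate 1 or 2 (up to 0.0591). After scaling, 2 genes named here after their values were seen rose in HFD against ND, the fast muscle light chain Mylpf and the keratin Krt20. On that scale 1248 of all 10764 genes rose and 1228 fell. The Acta1 call was lost without ND replicate 2 or 3 (up to 0.0912). The call of Hnf4a in HLJDD against ND was lost without HFD replicate 3, HLJDD replicate 1 or 4 or any ND library (up to 0.136). That of Cldn7 in HFD against ND was lost without HFD replicate 1 or 3 or any ND library (up to 0.111), and that of Esrp1 without those, HFD replicate 2, or HLJDD replicate 1 or 4 (up to 0.148). For Cldn7 in HLJDD against ND it was lost without any 1 of 9 libraries, all but HFD replicate 1 and HLJDD replicate 3 (up to 0.15).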

How the data were processed

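Total RNA of mouse intestine was sequenced in 11 libraries. FPKM values per gene were deposited by the authors; per the submitters' processing notes, fastp, HISAT2, HTSeq and R 3.2.0 were used with mm10, and the annotation and strand setting used were not given in the sources used here. FPKM of all 24294 symbols were whole multiples of 1 read within 0.02 reads, which gave the reads per gene. No column was left unmapped. Genes at 1 FPKM or more in at least 3 libraries (10764) were tested on log2(FPKM + 1) with limma 3.58.1 (R 4.3.3), with the trend option and no covariate, in a single model of the 11 libraries, two-sided, Benjamini-Hochberg adjustment and a threshold of 0.05. A fold change on this scale understates the change of low genes. Alternatives were a pseudocount of 0.1, other filters and scalings, array weights, leaving out libraries, a replicate block and, on the whole reads, limma-voom. Limma-voom took all reads in genes, mitochondrial ones included, as library size and had no median-ratio scaling. It called 0 genes in HLJDD against HFD, 1714 in HFD against ND and 1195 in HLJDD against ND. The fit was tested on simulated data. The simulated libraries had the same dispersion for every gene and no difference in mitochondrial share, so that test cannot speak for the contractile genes. The 10 genes were taken by name, without a threshold on any value, but they and the gene lists were chosen with earlier results of these data known. Named genes were all 10 contractile genes, up to 4 genes per list that passed in HFD against ND (or the 2 most abundant), the 10 genes most alike, and defining markers; genes outside this rule, named for their place in a sentence, are Mylpf, Krt20, Smtn, Mylk, Tpm4, Rhoa, Csrp1, Hand2, Myocd, Chrm2, Actb and Actc1, chosen after their values were seen. Some values of the gene lists are not reported here. Positions are from GENCODE M21 on GRCm38, the assembly of mm10.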

Additional observations from a re-analysis of the deposited data

Results flagged for a closer look

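In groups of 4 libraries, 5 of 116 checked values held a library far from the other 3; chance alone flags about 1 in 20 such groups. None was a contractile gene. The share of mitochondrial reads was 40.7% in HLJDD replicate 2, against 10.4% to 12.9% in the other HLJDD libraries. Fbln1, a matrix protein gene, was 21.6 FPKM in HLJDD replicate 2, against 53.4 to 55.3 FPKM in the others. Plvap, an endothelial gene, was 7.47 FPKM in HFD replicate 1, against 4.05 to 4.42 FPKM in the other HFD libraries. Acta1 was 2.92 FPKM in HFD replicate 4, against 4.08 to 4.19 FPKM in the others. Slc10a2, the ileal bile acid transporter, was 0.551 FPKM in HFD replicate 2, against 0.146 to 0.200 FPKM in the others.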

How the results depend on the processing

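Of the contractile genes, 0 passed in HFD against ND and in HLJDD against HFD as deposited and in every alternative except array weights, which called 8 and 5 and gave the libraries weights of 0.0874 (HLJDD replicate 2) to 10.1 (HLJDD replicate 1). In HLJDD against ND the count was 0 as deposited and 1, Actg2, under median-ratio scaling, equal sums without mitochondrially encoded genes, quantile normalization, a fit of only the 2 groups, and without the 2 libraries with the highest mitochondrial share, also with median-ratio scaling (an alternative added after seeing the data); array weights called 10, and leaving out 1 library gave 0 to 5. Over all genes HFD against ND called 1786, and 3413 with equal sums without mitochondrial genes, 2874 with quantile normalization, 7702 with array weights, 3352 without the 2 libraries and 664 to 3317 leaving out 1 library. HLJDD against HFD called 0, and 3807 with array weights, 1 without the 2 libraries, 3 with scaling as well, and 0 to 1 leaving out 1 library. HLJDD against ND called 1279, and 2110, 2324, 7082, 2575 and, scaled without the 2 libraries, 2399 under the same settings in the same order, and 470 to 1696 leaving out 1 library. The lowest counts of HFD against ND and of HLJDD against ND were without ND replicate 1. Median-ratio scaling moved the median of all genes by over 0.1 on the log2 scale, and the calls to 1248 higher and 1228 lower in HFD against ND (545 and 1241 as deposited) and to 927 higher and 988 lower in HLJDD against ND (441 and 838). The replicate block, for numbers shared by the groups, called 0 contractile genes in each comparison and 1080, 0 and 724 genes in HFD against ND, HLJDD against HFD and HLJDD against ND; same-numbered libraries deviated together over 0.1 in 3 of 10 pairs (r of -0.22 to 0.37), so the numbers were not taken as pairs, and 2 of 11 libraries correlated best with their own number. Directions turned for Myh11 in HFD against ND, to 0.0286 without the 2 libraries or HFD replicate 1 and to 0.18 scaled without the 2 libraries, where Tpm2 was 0.0718. In HLJDD against HFD leaving out 1 library gave ranges of -0.82 to 0.00718 for Myh11, -0.55 to 0.0479 for Tagln, -0.45 to 0.11 for Synpo2 and -0.40 to 0.11 for Lmod1; for HFD against ND Myh11 ranged from -0.80 to 0.0286. All 10 genes stayed below 0 in HLJDD against ND under every alternative run. The cause of these shifts was not tested.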
